A study of Mus musculus with 4 samples.

Results

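Bone-forming spots of the fetal mouse head are positions on a spatial expression array where 5 genes of mineralizing osteoblasts were highest together. Each array spot captures RNA from a patch of tissue that may contain several cells, and a unique molecular identifier (UMI) marks 1 molecule that was captured and read. The labels describe capture of messenger RNA on poly-T primers, whereas the Visium workflow for fixed tissue that they name reads RNA through pairs of gene-specific probes. Which of these a UMI stands for here is not given in the sources used, and with probes a gene at or near 0, or 1 with near-identical copies, also depends on the probe design. Spots over tissue with at least 2000 UMIs were scored by the mean, over Ibsp, Alpl, Sp7, Phospho1 and Ifitm5, of log2(1 + UMIs per 10000 UMIs of the spot). The 300 highest-scoring spots of 5901, pooled over all 4 capture areas, were taken as members, and the other 5601 spots served for comparison. The score ran from 4.19 in the highest member to 2.973 in the 300th, and the 301st spot scored 2.971. Its median was 3.30 in members and 0.582 in the other spots. The 10 members ranked 291 to 300 had median levels of 44.8 UMIs per 10000 for Ibsp and 3.43 for Sp7, against 31.1 and 4.14 in the 10 spots ranked 301 to 310, so the limit crosses a continuous range. As the score chose the members, their levels against other spots are given as a description, without a test.

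The study used Visium on formalin-fixed, paraffin-embedded coronal head sections of wild-type C57BL/6J mouse embryos to ask how gene expression changes around fusion of the secondary palate. The groups are embryonic day (E) 14.5 and E15.5, with no transgene, mutation or treatment in either. Each stage has 2 capture areas, of which 1 held a section of replicate 1 and the other held 3 sections of replicates 2, 3 and 4. Each capture area is 1 library, and the sections of the second area, called A, B and C here, could not be matched to replicate numbers. At E14.5 they were 3 connected groups of spots. At E15.5 the spots formed 2 connected groups and were split into 3 by k-means clustering of array position. The limits between A, B and C at E15.5 are thus computed and may not be those of the tissue sections. The sections show the whole head, so bone outside the palate is included. Nothing in the labels says whether replicates came from separate litters.

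Depth differed between the areas. All tissue spots together held 15438992 UMIs in the E14.5 replicate 1 area, 109127953 in the E14.5 replicate 2-4 area, 67344393 in the E15.5 replicate 1 area and 89128289 in the E15.5 replicate 2-4 area. The median member held 13600, 70724, 70204 and 53212 UMIs in the same order, and the median other spot 11116, 49147, 63697 and 44483. In every area the members were thus deeper than the other spots, and the E14.5 replicate 1 area was the shallowest, with 349117 UMIs over its 24 members. Levels below are counts per 1000000 UMIs (CPM), with the UMIs of a gene summed over a set of spots of an area and scaled by all UMIs of that set. CPM is not scaled by transcript length, so each gene is compared with itself. A lower level can mean fewer cells of a type in the spots or less RNA per cell, which these sums cannot tell apart.

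Most bones of the face and skull vault form by intramembranous ossification, in which mesenchyme condenses and turns directly into osteoblasts under the transcription factors Runx2 and Sp7. Osteoblasts secrete a matrix of type I collagen and acidic glycoproteins, and they mineralize it with phosphate that the phosphatases encoded by Alpl and Phospho1 release. Cells that become enclosed in the matrix turn into osteocytes, while multinucleated osteoclasts of the blood lineage resorb the new bone. In the lower jaw, bone forms alongside Meckel's cartilage.

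The 5 score genes cover successive steps of this process, and each was carried by nearly all members. Ibsp, which encodes the matrix glycoprotein bone sialoprotein, stood at 5594 CPM in the members of the E14.5 replicate 1 area, 4355 in those of the E14.5 replicate 2-4 area, 5259 in those of the E15.5 replicate 1 area and 7037 in those of the E15.5 replicate 2-4 area. In the other spots of these areas it stood at 223, 352, 343 and 769 CPM. Alpl, the phosphatase that clears pyrophosphate, had 713, 732, 836 and 771 CPM in members, and Phospho1, which releases phosphate inside matrix vesicles, had 636, 535, 602 and 698. Sp7, the osteoblast transcription factor osterix, had 530, 673, 465.9 and 516 CPM, and Ifitm5, a membrane protein of mineralizing osteoblasts, had 547, 577, 485 and 489. No member lacked Ibsp, Sp7 or Phospho1, 1 lacked Alpl and 2 lacked Ifitm5, which the choice of members by these genes largely fixed. Many other spots carried them too. At least 1 UMI was found in 84.1% of the other spots for Ibsp, 71.8% for Alpl, 59.5% for Sp7, 58.8% for Phospho1 and 60.8% for Ifitm5. When a gene was left out of the score and 300 members were chosen again by the other 4, between 271 and 283 of the 300 were the same spots, and the gene left out still stood 2.51 to 4.42 above the other spots on the log2 scale of CPM in every area.

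Members made up 24 of 859 spots in the E14.5 replicate 1 area (2.79%, exact 95% binomial interval 1.80 to 4.13%) and 88 of 2104 in the E14.5 replicate 2-4 area (4.18%, 3.37 to 5.13%). At E15.5 they were 33 of 988 in the replicate 1 area (3.34%, 2.31 to 4.66%) and 155 of 1950 in the replicate 2-4 area (7.95%, 6.79 to 9.24%). These intervals cover counting error only. The mean share of the areas was 3.49% at the earlier stage and 5.64% at the later stage, a ratio of 1.62, but the stages overlapped, and without the E15.5 replicate 2-4 area the ratio was 0.958. By section, the share ran from 2.80% to 4.84% at E14.5, and at E15.5 it was 3.35% in the replicate 1 section against 10.5%, 7.03% and 6.26% in sections A, B and C. The limits between these A, B and C were computed from position. The study aimed at the middle of the palate, but the exact plane of each section is not given, so plane and stage cannot be told apart here.

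**Figure D1:**
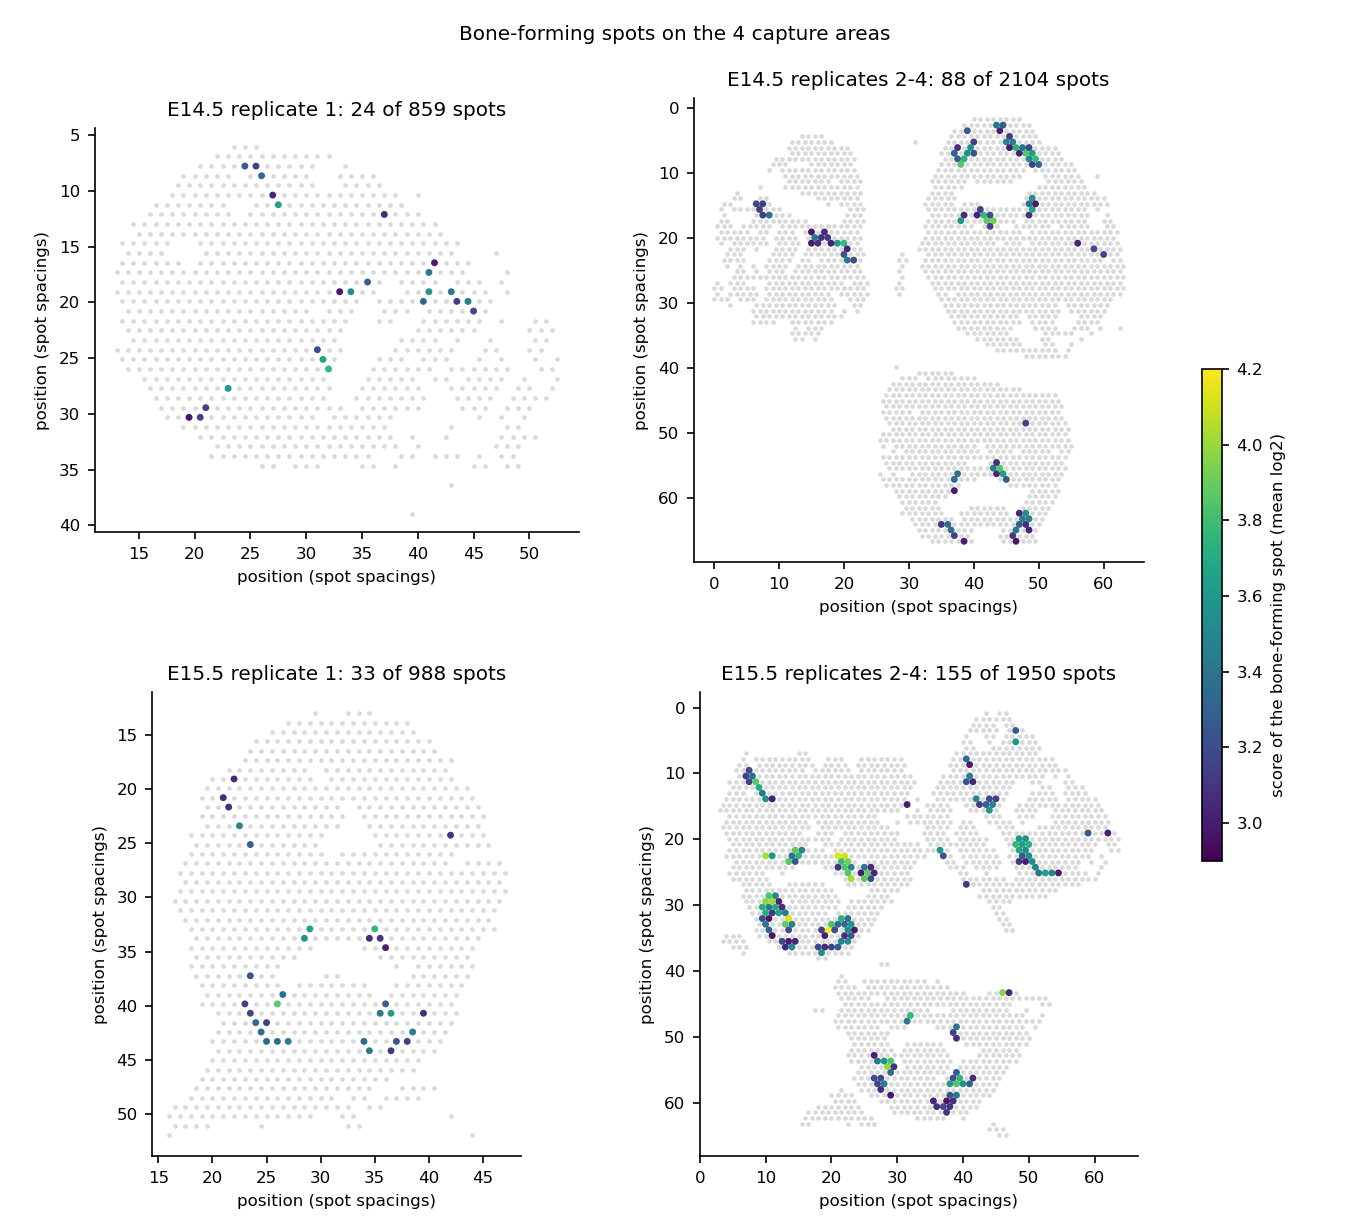
Position of bone-forming spots on the 4 capture areas, with both axes in spot spacings. Gray points are the other spots with at least 2000 UMIs and colored points are members, colored by score from 2.97 to 4.19. Members form short lines and patches, with the most in the E15.5 replicate 2-4 area (155 of 1950 spots).

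Members lay next to each other more often than their share of the tissue. Of the neighbors of members, 18.7% and 39.1% were members at E14.5, replicate 1 first, and 22.4% and 47.4% at E15.5. A spot was counted here once for each member it adjoins. Joined through adjacent spots, the 300 members formed 71 patches, of which 23 were solitary spots, 26 held at least 4 members and the largest held 22. The 26 larger patches contained 226 members. By eye, some of the larger patches formed thin bands on the map of member positions, but shape was not measured.

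The genes that stood highest in members besides the score genes were mainly products of mature, mineralizing osteoblasts. Of 9402 genes with at least 200 UMIs over all members, 1786 (19%) were higher in members than in the other spots in all 4 areas, 4233 (45%) were lower in all 4, and 202 (2.15%) were at least 2-fold higher in all 4. Ranked by the lowest of the 4 area ratios, Bglap, which encodes osteocalcin, came first at 9.71- to 13.5-fold. It had 17.2 and 49.9 CPM in the E14.5 members and 40.6 and 36.9 in the E15.5 members, against 1.48 to 3.80 CPM in the other spots, and its value in the E14.5 replicate 1 area rests on 6 UMIs. Bglap has near-identical neighboring copies, so its UMIs may include molecules of those copies.

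Matrix genes of the SIBLING family, acidic phosphoproteins that bind mineral, lie within 270 kb of chromosome 5 (GRCm38, 104170712 to 104441050, in the order Dspp, Dmp1, Ibsp, Mepe, Spp1), and they differed widely in members. Spp1, which encodes osteopontin, had 510 and 2434 CPM in the E14.5 members and 1993 and 1767 in the E15.5 members, 6.24- to 13.6-fold above the other spots. The E14.5 replicate 1 area stood apart on the low side. Dmp1, an osteocyte-associated matrix protein, had 243 and 159 CPM at E14.5 and 287 and 135 at E15.5, with both replicate 1 areas above both replicate 2-4 areas, and it was 7.60- to 13.7-fold above the other spots. Mepe had 1 UMI and Dspp, which tooth odontoblasts make, had 3 UMIs over all 300 members.

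For matrix genes in general, 18 of 21 with at least 200 UMIs over all 5901 spots were higher in all 4 areas and 1 was lower, Smoc1. Among all 13992 genes that reached this minimum, which the lists below also use, 14.4% were higher in all 4 areas, 46.8% were lower and 1.69% were at least 2-fold higher. Col1a1, the main collagen of bone, took 48754 and 58975 CPM of the E14.5 members and 54048 and 62971 CPM of the E15.5 members, 2.10 to 2.92 above the other spots on the log2 scale. Genes that are also used in other connective tissues varied. The log2 ratio was 2.04 to 2.91 for Col1a2, 1.58 to 2.36 for Col5a2, 1.52 to 2.16 for Cthrc1, 0.12 to 0.82 for Fn1 (fibronectin), -0.35 to 0.77 for Postn (periostin) and -0.34 to 0.03 for Dcn (decorin).

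Among the 25 genes set furthest apart were Slc36a2, an amino acid transporter at 9.04- to 22.4-fold, and Slc13a5, a citrate transporter at 8.51- to 19.5-fold. Phex, an endopeptidase needed for normal phosphate handling, stood at 6.61- to 9.31-fold. Smpd3, a sphingomyelinase of bone mineralization, stood at 6.01- to 7.47-fold. Enpp6, a choline phosphodiesterase that is not on the mineral and phosphate list, stood at 7.25- to 11.3-fold. Of that list's 15 genes that reached the minimum, 11 were higher in all 4 areas and 1, the phosphate transporter Slc20a1, was lower in all 4. The vitamin D receptor Vdr was 5.45- to 10.5-fold higher and the parathyroid hormone receptor Pth1r was 1.94 to 3.01 higher on the log2 scale. Panx3, a channel protein of osteoblasts and prehypertrophic chondrocytes, was 6.82- to 19.3-fold higher. Ambn, which encodes the enamel matrix protein ameloblastin, was 7.05- to 9.61-fold higher with 2111 UMIs in members. The other enamel genes listed were at 1 UMI (Enam) and 0 UMIs (Amelx) there. They were also scarce in the other spots, at 3 UMIs (Enam) and 27 UMIs (Amelx).

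Other genes among the 25 set furthest apart were Chst13 (a chondroitin sulfotransferase), Bmp8a (a bone morphogenetic protein), Car3 (a carbonic anhydrase), Hapln4, Cgref1, Sgms2 (a sphingomyelin synthase), Col22a1, Loxl4 (a lysyl oxidase), Lpar3 (a lysophosphatidic acid receptor), Slc17a9 (a nucleotide transporter), Adgrd1, Fetub and Kazald1. Their lowest area ratio lay between 5.70-fold for Kazald1 and 8.69-fold for Chst13. Over the 25 genes, the E14.5 replicate 1 area gave the highest ratio for 19 and the E15.5 replicate 2-4 area the lowest for 24, with median log2 ratios of 3.62, 3.08, 3.22 and 2.74 in the order of areas above. The share of members ran the other way in these areas (2.79% and 7.95%). The part of this in the ratios was not tested. At the other end, the genes furthest below the other spots were Neurod6, Fezf2, Zic1, Chga and Igfbpl1, which mark neurons or their progenitors, at 0.0346- to 0.188-fold.

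**Figure D2:**
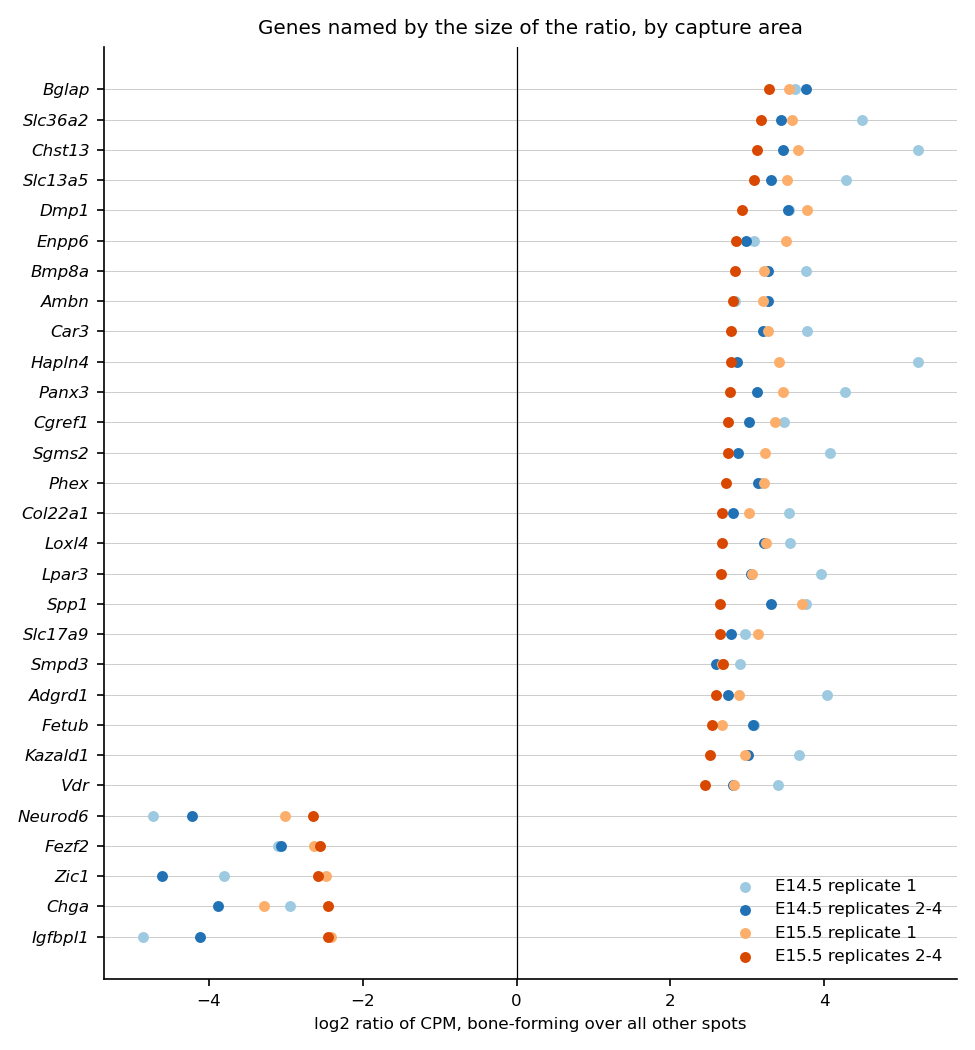
Ratio of CPM in bone-forming spots to CPM in all other spots of the same capture area, on a log2 axis, for 24 of the 25 genes furthest above and the 5 furthest below by the area nearest to 0. Each point is 1 capture area, and Bglap lies at 3.28 to 3.76.

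Upstream sequences are shown as examples, to let the position of a Runx word be seen, and were chosen as 3 genes that hold it and the score gene Phospho1. Mmp13 is not among the 25 genes, and the examples say nothing of how often the word occurs. Runx factors bind DNA at a core word ACCACA, or TGTGGT on the other strand, and Runx2 itself was 1.85 to 3.21 higher in members on the log2 scale. The sequences are the 150 bases before the RefSeq transcription start (GRCm38.p6, 5′ to 3′ on the gene's strand), with the core word in capitals on either strand.
Bglap, chr3:88384467-88384616, minus strand: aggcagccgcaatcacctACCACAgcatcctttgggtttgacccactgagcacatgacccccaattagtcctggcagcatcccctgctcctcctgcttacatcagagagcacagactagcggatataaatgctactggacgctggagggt
Spp1, chr5:104434961-104435110, plus strand: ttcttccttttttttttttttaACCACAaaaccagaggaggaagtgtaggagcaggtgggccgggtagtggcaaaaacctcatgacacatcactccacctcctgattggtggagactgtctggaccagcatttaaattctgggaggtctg
Mmp13, chr9:7272364-7272513, plus strand: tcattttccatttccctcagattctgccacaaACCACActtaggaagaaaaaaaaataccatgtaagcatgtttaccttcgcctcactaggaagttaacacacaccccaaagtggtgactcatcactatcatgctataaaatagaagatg
Phospho1, chr11:95824350-95824499, plus strand: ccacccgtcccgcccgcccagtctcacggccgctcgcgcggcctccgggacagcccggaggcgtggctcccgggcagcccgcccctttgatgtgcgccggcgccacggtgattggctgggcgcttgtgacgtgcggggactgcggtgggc
The word begins 132 bases before the start of Bglap, 128 before Spp1 and 118 before Mmp13. Among the 25 genes, 16 had a promoter entry and 3 of them held the word in this window (Bglap, Spp1 and Sgms2), as did 0 of the 4 score genes with an entry. Of all 27025 genes with an entry, 9.73% held it. A match is a string of letters and not evidence of binding.

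Transcription factors of the osteoblast lineage followed the same direction, with 14 of 17 higher in all 4 areas and none lower. Runx2 was at 352, 362, 355 and 380 CPM in members, with the areas close together, while the other spots held 38.2 to 106 CPM. Tcf7, a Wnt effector, stood 2.40 to 3.44 above the other spots on the log2 scale, Dlx3 2.34 to 2.54, and Creb3l1, a regulator of collagen secretion, 1.85 to 2.74. Patterning factors that mesenchyme also carries were less set apart, at 0.65 to 1.01 for Dlx5, 0.99 to 1.53 for Msx1 and 0.16 to 1.33 for Twist1. Lef1, Runx1 and Zfp521 were not higher in all 4 areas, and Zfp521 had 24 UMIs over all members.

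Genes that modify, fold and cross-link collagen, many of which are mutated in osteogenesis imperfecta, were higher in all 4 areas in 21 of 24 cases and lower in none. Serpinh1, the collagen chaperone HSP47, stood at 4119, 3211, 3981 and 3526 CPM in members against 984, 1113, 1416 and 1553 in the other spots. The log2 ratio was 2.67 to 3.55 for the cross-linking enzyme Loxl4, 1.83 to 2.84 for Tent5a, 1.42 to 2.45 for the chaperone Fkbp10, 1.38 to 2.86 for the prolyl hydroxylase subunit P4ha2, 1.10 to 1.93 for P3h1 and 0.91 to 1.93 for Crtap. The general lysyl hydroxylase Plod2 was less set apart at 0.48 to 1.17. Tmem38b, Mbtps2 and Ccdc134 differed in direction between areas.

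Of 52 signalling genes on the list for bone, 32 were higher in members in all 4 areas and 8 were lower. Among ligands of the bone morphogenetic protein family, Bmp8a was one of the 25 genes set furthest apart, with 40.1, 62.1, 55.3 and 63.8 CPM in members. Bmp2 was 1.04 to 2.32 higher on the log2 scale and Bmp6 1.04 to 1.41, while Bmp4 was 0.16 to 0.90 higher and Bmp7 0.07 to 0.15. Hedgehog ligand Ihh had 28.6, 22.2, 23.9 and 27.3 CPM in members against 3.24, 4.70, 3.85 and 6.93 in the other spots, and the hedgehog targets Ptch1 and Gli1 were 0.84 to 1.54 and 0.44 to 1.18 higher on the log2 scale. In the Wnt pathway, the ligand Wnt10b was 1.01 to 3.31 higher, the secreted inhibitors Wif1 and Notum 1.93 to 2.22 and 1.15 to 1.37, and the co-receptor Lrp5 0.87 to 1.82, whereas the target Axin2 was lower in all 4 areas. The fibroblast growth factor receptors Fgfr3 and Fgfr2 were 1.07 to 1.63 and 0.78 to 1.37 higher, and the ligands Fgf18 and Fgf9 were lower in all 4 areas. Tgfb1 was 1.82 to 2.45 higher and Tgfb2 was lower in all 4 areas. The other genes that were lower throughout were Bmpr1b, Grem1, Cxcl12 and Kcnk2. Tmem119, a membrane protein of osteoblasts, was 2.26 to 3.45 higher, from 367, 422, 455 and 396 CPM in members.

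Osteocyte genes were partly present. Of 10 genes with enough UMIs, 8 were higher in members in all 4 areas and none was lower. Sost, the Wnt inhibitor sclerostin of mature osteocytes, was scarce, with 113 UMIs over all members and 2.86, 4.94, 16.7 and 5.08 CPM, and Dkk1 had 80 UMIs. Irx5 was 0.78 to 1.52 higher on the log2 scale. Pdpn and Ptprz1 differed in direction between areas, and Fgf23 and Mepe had 4 UMIs and 1 UMI.

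Osteoclast genes were also higher in members, in 10 of 15 cases, with Clcn7 and Ostm1 lower and Calcr, Oscar and Nfatc1 mixed. Summed over the list, members held 785, 1457, 926 and 1453 CPM against 252, 452, 363 and 532 in the other spots. Ctsk, the collagen-degrading protease cathepsin K and the most abundant of them, had 281, 606, 350 and 532 CPM in members. Acp5, tartrate-resistant acid phosphatase, had 100, 258, 129 and 218 CPM, and Mmp9, a gelatinase, had 226, 388, 227 and 472. In all of these the replicate 2-4 area of each stage was above the replicate 1 area. The log2 ratio was 2.40 to 3.64 for the cell fusion gene Dcstamp and 2.19 to 2.55 for the proton pump subunit Atp6v0d2, although members of the E14.5 replicate 1 area held 2 UMIs and 1 UMI of these. It was -1.09 to -0.08 for Clcn7 and -1.41 to -0.10 for Ostm1, the subunits of the chloride transporter of acid secretion. For the osteoclast differentiation ligand, Tnfsf11 had 8.59, 43.3, 30.6 and 49.8 CPM in members and was 1.16 to 2.35 higher than in the other spots, and its decoy receptor Tnfrsf11b was 0.92 to 2.10 higher.

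Cartilage genes did not follow the bone genes. Of 20, 4 were higher in all 4 areas (Col11a1, Col11a2, Sox6 and Chad) and 6 were lower (Matn3, Matn4, Col9a1, Col9a3, Sox9 and Sox5). Col2a1, the collagen of cartilage, had 2014, 3723, 1843 and 3837 CPM in members against 1528, 2301, 1871 and 3042 in the other spots, and was thus present in members at a level near that of the whole section. Sox9, the chondrocyte transcription factor, had 117, 148, 133 and 111 CPM against 208, 222, 221 and 163. The list summed to 5706, 7632, 4934 and 8731 CPM in members and 3589, 4902, 3908 and 6783 in the other spots. Of the 8 genes of hypertrophic cartilage, 7 were higher in all 4 areas, but this list shares Ibsp and Alpl with the score, and Runx3, Panx3, Pth1r, Ihh and Mmp13 are also active in osteoblasts. Col10a1, the collagen that marks hypertrophic chondrocytes, was the exception. It had 0, 3.63, 0 and 19.2 CPM in members against 0.405, 0.855, 0.185 and 4.75 in the other spots, and it was above the other spots in both replicate 2-4 areas, where all of its 181 UMIs in members lay. No UMI was seen in members of the replicate 1 areas, but levels like those of the other spots there would not be detectable at this depth. The part of cartilage cells in the results was not tested.

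Muscle, neuron and epithelium genes were mostly lower in members. Of 17 skeletal muscle genes, 0 were higher in all 4 areas and 14 were lower, and the list summed to 1873, 2952, 2606 and 2819 CPM in members against 2441, 6367, 7717 and 9043 in the other spots, with Myh3 the most abundant. All 14 neuron genes were lower in members, at sums of 667, 360, 859 and 422 CPM against 6131, 3978, 3944 and 1944, with Stmn2 the most abundant. Of 12 surface and oral epithelium genes 9 were lower, with sums of 556, 1424, 1180 and 1130 CPM against 711, 1506, 1987 and 2174. Endothelium genes were near the level of the section, with 6 of 12 higher and none lower and list sums 1.34, 1.13, 1.06 and 1.06 times those of the other spots. Macrophage genes had 2 higher and 2 lower of 11, and red cell genes were mixed in 7 of 7. Cell cycle genes were higher in none and lower in 6 of 12. Tendon and ligament genes had 2 higher and 2 lower of 7, tooth genes 2 and 3 of 10, dermis and meninges genes 3 and 5 of 9, stress and RNA quality genes 2 and 5 of 8, and mouth cavity cilia genes 0 and 3 of 11.

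As a median over a list of the mean log2 ratio of the areas, members stood at 2.34 above the other spots for mineral and phosphate genes, 1.97 for matrix genes, 1.34 for collagen processing, 1.32 for osteocyte genes, 1.17 for osteoclast genes, 0.86 for osteoblast transcription factors and 0.52 for signals. The median was -0.08 for cartilage, -0.58 for epithelium, -1.21 for muscle and -2.70 for neuron genes, against -0.21 over all genes.

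Progenitor and suture mesenchyme genes were split, with 6 of 25 higher in all 4 areas and 7 lower. Among the higher genes were En1, at 1.46 to 2.49 on the log2 scale, Foxf1 at 1.05 to 2.15, the limb and face mesenchyme factor Prrx1 at 0.58 to 1.56 and Hand2, a transcription factor of lower jaw mesenchyme, at 0.38 to 1.08. Among the lower genes were the palate mesenchyme factor Osr2, at -1.11 to -0.32, and Osr1, Foxc2, Meox2 and Zic1. Tbx22, a palate factor, was at 0 UMIs in members of all areas.

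Around members, the 5 score genes and the matrix genes Bglap, Dmp1, Spp1 and Col1a1 were lower already in the adjacent spots. Spots were sorted by the number of steps on the array grid to the nearest member, and CPM at each distance was set against that in members of the same area. The spots adjacent to a member numbered 81, 193, 111 and 284 in the order of areas. Ibsp there was 24.6 to 34.4% of its level in members, and 1.04 to 2.80% more than 6 steps away. As the score used Ibsp and the other 4 genes, part of this drop is fixed by the choice. For genes outside the score, the adjacent spots held 20.7 to 37.4% of the member level for Bglap, 35.8 to 39.8% for Phex, 32.8 to 51.6% for Dmp1, 36.7 to 55.7% for Spp1, 45.8 to 51.6% for Col1a1 and 46.8 to 69.8% for Runx2. Col1a1 more than 6 steps away was still 6.53 to 13.7%.

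Osteoclast genes were less sharply limited to members in most areas. Ctsk in adjacent spots was 80.6 to 94.6% of the member level, Acp5 64.0 to 95.2% and Mmp9 44.1 to 95.6%, the lowest in the E14.5 replicate 1 area, where Col1a1 was at 48.8%. With 600 members the mean for Ctsk was 51.4%, against 86.2% with 300. Msx1, a factor of craniofacial mesenchyme, was 99.7 to 110%, Prrx1 101 to 109%, Twist1 95.6 to 112% and Gli1 97.5 to 109%, so these genes were as high just outside members as in them. Another set was higher outside than inside. Osr2 stood at 182 to 284% of the member level in adjacent spots, Pax9 at 160 to 477%, the tendon factor Scx at 130 to 225%, Tnmd at 129 to 202% and Postn at 123 to 156%. The highest value of Pax9 came from the E14.5 replicate 1 area, whose members held 6 Pax9 UMIs, and the other areas gave 160 to 209%. Osr2 had 91.7, 102, 69.5 and 85.0 CPM in members, 260, 186, 136 and 178 CPM in adjacent spots and 309, 250, 174 and 227 CPM at 2 steps, the highest distance class in every area. The muscle gene Myh3, the skin gene Krt14 and the nerve gene Stmn2 were also higher outside, at 183 to 221%, 160 to 179% and 159 to 214% in adjacent spots. These are descriptions of position, without a test.

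**Figure D3:**
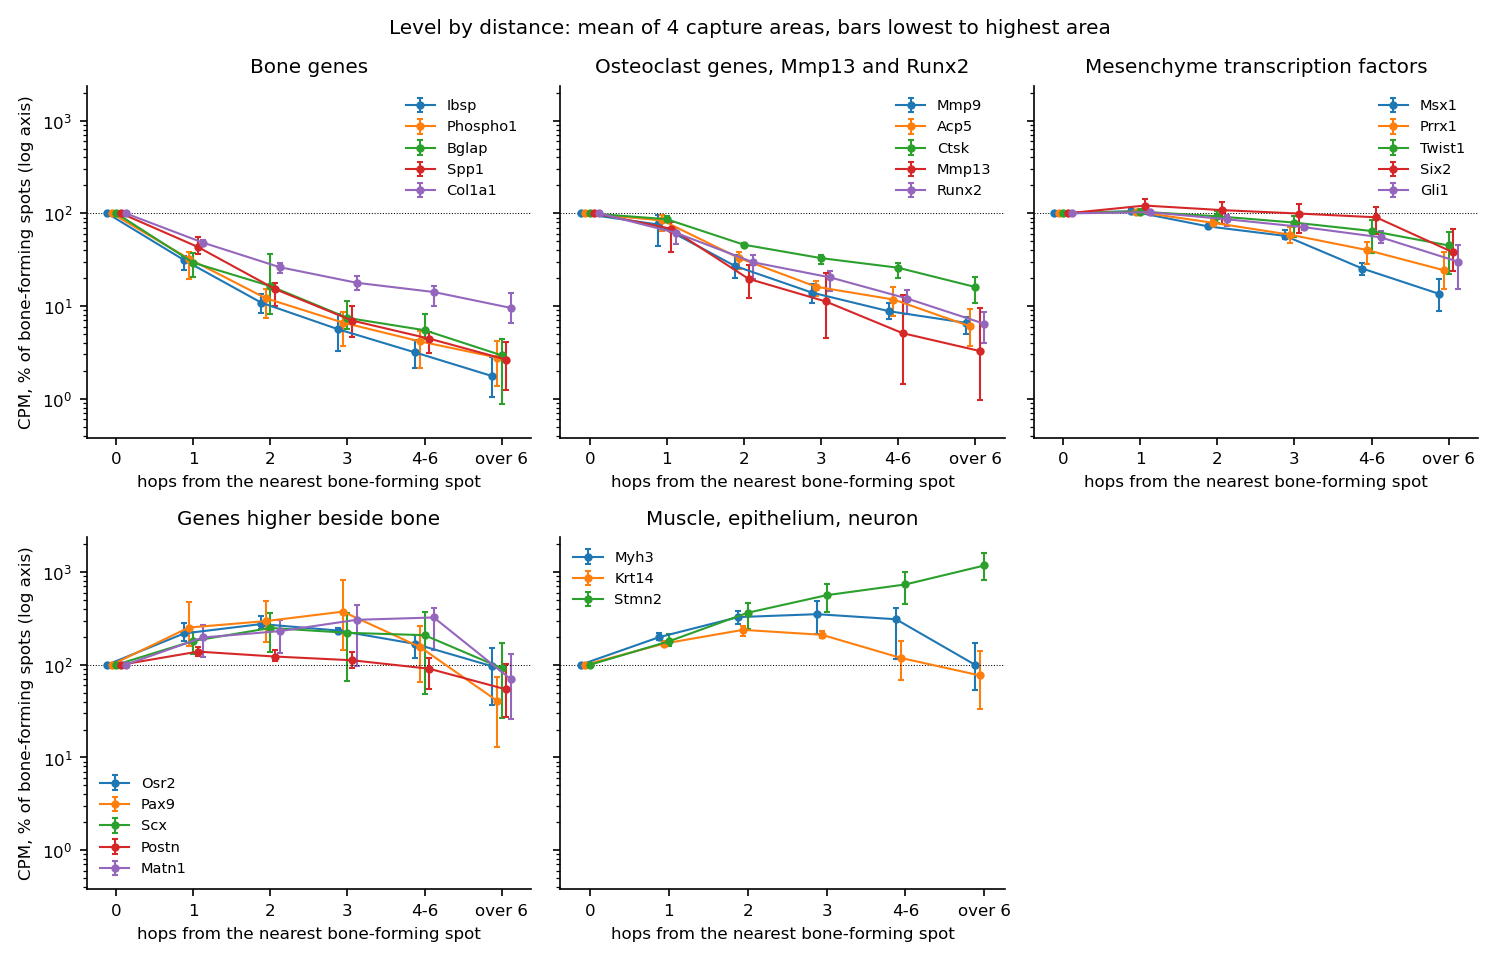
Level of selected genes by distance from bone-forming spots, as CPM in percent of CPM in members of the same capture area, on a log axis. The horizontal axis gives steps (hops) on the array grid to the nearest member, with 0 the members, points are means of the 4 capture areas and bars run from the lowest to the highest area. Ibsp drops to 24.6 to 34.4% in the adjacent spots, while Osr2 is at 182 to 284% there.

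Members were not alike. They were split by score into a top, middle and bottom class of 100 spots, with 7, 21, 6 and 66 spots of the top class in the areas. Ibsp was at 8002 CPM in the top class and 3951 CPM in the bottom class, which the score fixes. The middle class held 8, 31, 15 and 46 spots and the bottom class 9, 36, 12 and 43, so other genes were compared within the replicate 2-4 areas, which held the most members. In the E14.5 replicate 2-4 area, from the top to the bottom class, Phex had 137, 123 and 70.7 CPM and Smpd3 403, 340 and 266. In the E15.5 replicate 2-4 area Phex had 166, 123 and 93.8 CPM and Smpd3 337, 215 and 198. Both thus followed the order of the score in these areas, and Runx2 differed less, at 417, 348 and 335 CPM and at 405, 368 and 352. Col1a1 had 65017, 65283 and 49075 CPM in the first of these areas and 72454, 58696 and 51778 in the second. Spp1 had no shared order, at 2630, 2678 and 2079 CPM and at 1466, 1756 and 2289. Genes of resorption were lowest in the top class of both areas. Mmp13, the collagenase of bone and hypertrophic cartilage, had 54.8, 205 and 170 CPM at E14.5 and 168, 391 and 793 at E15.5. Acp5 had 156, 243 and 344 CPM and then 165, 232 and 290, and Mmp9 had 224, 416 and 480 CPM and then 314, 499 and 708. This order was not particular to them. The muscle gene Myh3 was also lowest in the top class, at 456, 609 and 746 CPM and then 368, 611 and 689. Col2a1 had 3214, 2885 and 4828 CPM and then 3219, 3956 and 4747. The part of neighboring tissue in this order was not tested. The replicate 1 areas held 6 to 15 spots of a class. In that of E15.5 the top class was again lowest, at 23.6, 138 and 165 CPM for Mmp13, 69.0, 147 and 142 for Acp5 and 96.5, 254 and 273 for Mmp9. In that of E14.5 this was not so, with 14, 9 and 12 UMIs of Acp5 at 144, 86.1 and 81.6 CPM, and Mmp13 had 4, 1 and 0 UMIs.

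Osteoclast genes varied together from spot to spot in 3 of the areas. Over the 24, 88, 33 and 155 members of the areas, in the order above, Spearman's rho across spots was 0.26, 0.90, 0.70 and 0.83 for Acp5 with Mmp9 and 0.36, 0.88, 0.73 and 0.79 for Acp5 with Ctsk. For Mmp13 it was 0.13, 0.69, 0.45 and 0.69 with Hand2, 0.47, 0.64, 0.61 and 0.66 with Mmp9 and 0.26, 0.25, -0.16 and 0.08 with Dmp1. For Ibsp with Dmp1 it was 0.53, 0.52, 0.65 and 0.37. The spots of an area share a library, sections and a range of depths, so the coefficients are descriptive and carry no p-value.

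Patches also differed from each other, and the collagenase Mmp13 varied most with Hand2 among the genes set against it. Over the 26 patches of at least 4 spots, from 8 sections of 4 libraries, Hand2 ran from 0 to 402 CPM. Of 24 measures set against Hand2 over these patches, Mmp13 had the highest Spearman's rho, at 0.89 (0.99 over the 10 patches of E14.5 and 0.90 over the 16 of E15.5). The 13 patches with the lowest Hand2 (0 to 46.8 CPM, 103 spots) had 2.51 to 126 CPM of Mmp13 with a median of 16.1, and the 13 with the highest (70.3 to 402 CPM, 123 spots) had 101 to 1510 CPM with a median of 242. The lower ends rest on 1 UMI of Mmp13 at 2.51 CPM and 3 UMIs at 101 CPM. The patch at 101 CPM also held 3 UMIs of Hand2. The patch with the most Hand2, of 5 spots in E15.5 section A, had 1510 CPM of Mmp13, and the largest patch, of 22 spots, had 88.2 CPM of Hand2 and 170 CPM of Mmp13. The patch with the most Hand2 also had the most Col2a1, at 8104 CPM, and the most Col10a1, at 157 CPM, of all 26. Over the patches the rho of Hand2 was 0.41 with Col2a1 (0.83 at E14.5 and 0.29 at E15.5), 0.11 with Col10a1 and -0.13 with the cartilage gene Matn1, and the part of cartilage cells in the Mmp13 relation was not tested. The choice of Hand2 was made after its values had been seen.

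Other genes split along the same line. Mmp9 had rho 0.79 with Hand2 and Acp5 0.65, with Mmp9 medians of 199 CPM in the lower and 518 in the upper patches. Phex ran against it at -0.65, with medians of 159 and 86.1 CPM, and at -0.33 without the E15.5 replicate 2-4 area. Stmn2 had rho -0.73 and Myh3 0.70, and the distance of a patch from the center of the neuron-rich spots in its section had 0.69, so position in the head moved with Hand2. The part of neighboring tissue in these relations was not tested. Runx2 at 0.06, Spp1 at 0.19 and Ibsp at -0.37 were less related. With 75 spots taken from each area in place of the 300 highest, rho was 0.449 for Mmp13 and 0.023 for Phex.

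**Figure D4:**
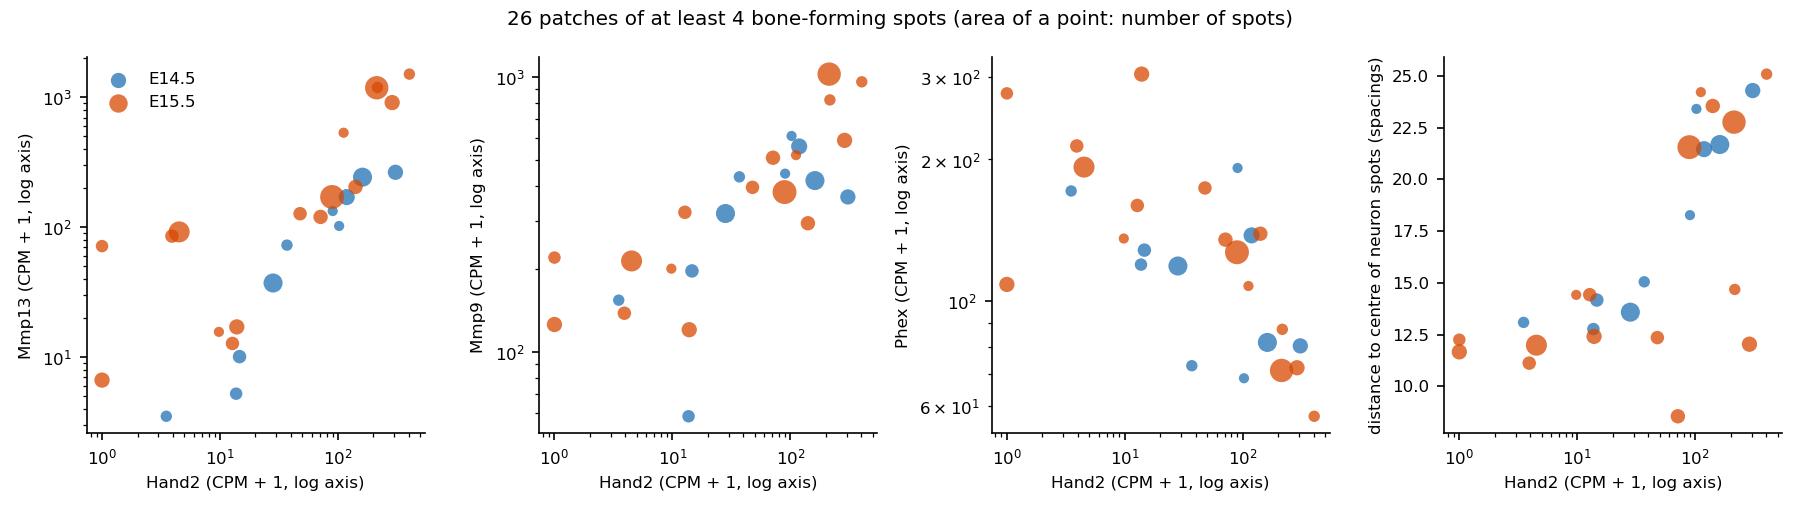
Mmp13, Mmp9 and Phex in CPM + 1, and the distance from the center of neuron-rich spots in spot spacings, against Hand2 in CPM + 1, with log axes for the gene levels. Each point is 1 of the 26 patches of at least 4 bone-forming spots, colored by stage, with its area set by the number of spots. Mmp13 is 2.51 to 126 CPM in the 13 patches with the lowest Hand2 and 101 to 1510 CPM in the other 13. The values of 2.51 and 101 CPM rest on 1 and 3 UMIs of Mmp13.

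Stage was tested on the summed UMIs of the members of each area, 2 areas against 2, with edgeR's quasi-likelihood test over 12323 genes and Benjamini-Hochberg adjustment. No gene passed an adjusted p under 0.1 (0% of those tested), and the smallest adjusted p was 0.249. At an unadjusted p under 0.05, 195 genes (1.58%) were higher at E15.5 and 36 (0.292%) were lower, and DESeq2 called 1 gene at an adjusted p under 0.1. With the replicate number as a block, edgeR also called genes, as counted in the last section. The areas of the stages did not overlap for 3409 genes (27.7%). Leaving out the score genes, whose levels the choice of members used, none of the listed bone, osteoclast or cartilage genes was called in either direction. The median log2 difference was 0.09 for matrix genes, -0.05 for collagen processing, 0.14 for osteoclast genes and 0.06 for cartilage genes, against 0.01 over all genes. Members of both stages passed the same score limit, so other genes that follow the score were also partly matched by the choice. For such genes a small difference here cannot show that bone did not change between the stages.

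With 2 areas a stage, the osteoblast genes named next did not pass. Runx2 differed by 0.02 on the log2 scale (SE 0.23). Pth1r had 590 and 626 CPM at E14.5 and 504 and 677 at E15.5. Phex stood at 71.6 and 107 CPM and then at 120 and 135, without overlap (log2 difference 0.41, SE 0.27). Spp1 differed by 0.30 (SE 0.48), and its lowest value was that of the E14.5 replicate 1 area. Without the E14.5 replicate 2-4 area it passed. The Wnt inhibitor Wif1 had 20.1 and 20.8 CPM at E14.5 and 38.1 and 38.7 at E15.5, a log2 difference of 0.87 (SE 0.31) that did not pass, with an edgeR adjusted p of 0.9999. Its first value rests on few UMIs. By section it ran from 11.9 to 27.7 CPM at E14.5 and from 23.5 to 45.6 CPM at E15.5, so the sections of the stages overlapped. Mmp13 had 14.3 and 150 CPM at E14.5 and 123 and 398 at E15.5, so the stages overlapped, and the first value rests on 5 UMIs. Its log2 difference was 1.36 (SE 0.60, unadjusted p 0.042, adjusted p 0.9999 by edgeR). Within the replicate 1 areas the difference was 2.96 and within the replicate 2-4 areas 1.40. Mmp13 passed by edgeR without the filter on low counts (adjusted p 0.000963), with the replicate number as a block (0.0014), without the E14.5 replicate 2-4 area and without the E15.5 replicate 1 area.

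The genes with the smallest p-values were named although none passed. Lower at E15.5 were Arhgef25, a guanine nucleotide exchange factor, Tmem134, Kif26b, a kinesin-family gene, Fgf15 and Hmx1. Arhgef25 had 117 and 156 CPM at E14.5 and 38.1 and 14.6 at E15.5 (log2 difference -2.52, SE 0.39, edgeR adjusted p 0.249), and it had 126, 157, 46.4 and 17.1 CPM in the other spots, so the values outside members were close to these. It passed under 8 of the alternatives tried, DESeq2 among them. Tmem134 had 88.8 and 73.2 CPM and then 44.0 and 20.4, and again like values in the other spots, 63.6, 63.8, 34.1 and 21.7. Higher at E15.5 were Gosr1, a vesicle transport gene, Olfm5, Haus2, Crybb1 and Tars2. Gosr1 had 11.5 and 20.1 CPM and then 38.1 and 44.1, and Haus2, a centrosomal protein, 11.5 and 12.4 and then 28.05 and 28.5. For both genes the value of 11.5 CPM is that of the shallow E14.5 replicate 1 area and rests on few UMIs. Crybb1, a lens crystallin, had 0 and 45.3 and then 79.1 and 158 CPM in members against 1.96, 807, 285 and 1111 in the other spots, and the part of lens RNA in the difference was not tested.

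**Figure D5:**
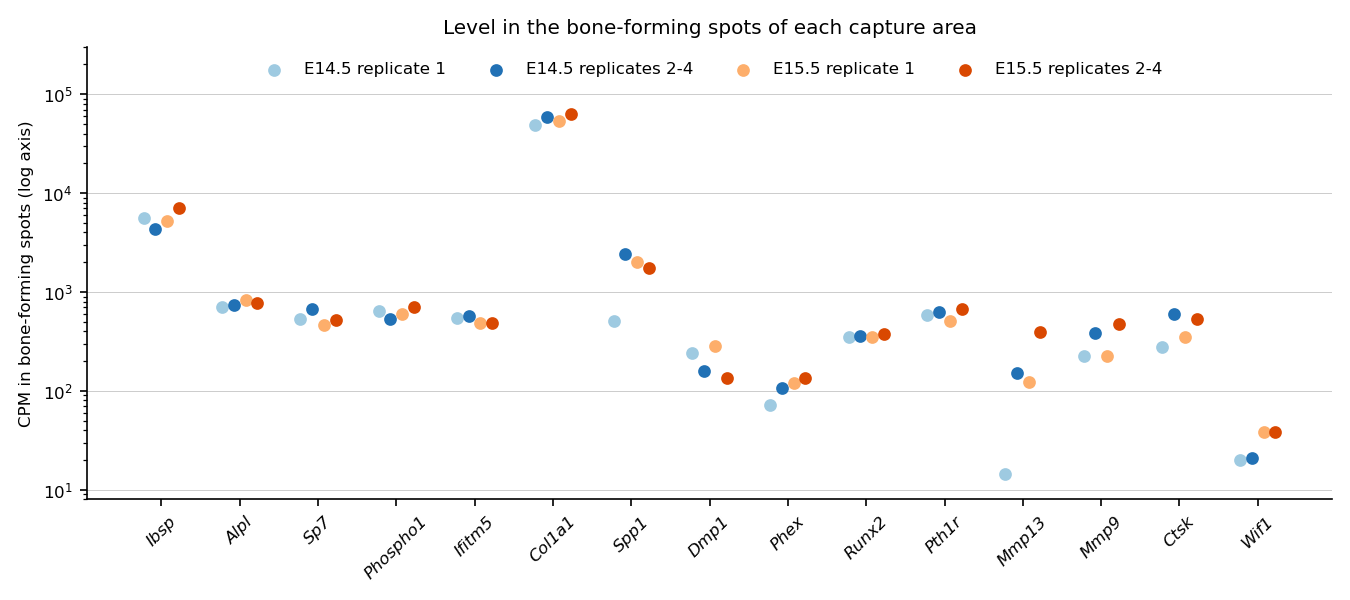
CPM of 15 genes in the bone-forming spots of each capture area, on a log axis. Each point is 1 capture area, 2 for each stage, colored by area. Mmp13 ranges from 14.3 to 398 CPM with the stages overlapping, and Runx2 lies between 352 and 380 CPM in all areas.

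The other spots were tested the same way, and 0 of 15479 genes passed (0%), with 1063 at an unadjusted p under 0.05 (3.5% higher and 3.37% lower) and 54 by DESeq2. With the replicate number as a block, edgeR called more genes than DESeq2 did, as counted in the last section. The areas of the stages did not overlap for 41.7% of these genes. The smallest adjusted p was 0.711. The same test on the difference between stages, members relative to the other spots of the same area, called 474 of 14054 genes (3.37%), 376 higher (2.68%) and 98 lower (0.697%). The values of the stages did not overlap for 414 of the 474, against 6133 (43.6%) of all 14054 genes. An unadjusted p under 0.05 was reached by 1681 genes (7.21% higher and 4.75% lower).

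The calls depended on the fit. They were 107 with DESeq2, 19 with sections as samples, 12 when a log2 change above 1 was required and 0 without the area as a block. Of the bone lists, leaving out the score genes, whose levels the choice of members used, the test called 1 of 17 osteoblast factors, 1 of 21 matrix genes, 1 of 15 mineral genes, 1 of 10 osteocyte genes and 0 of 24 collagen processing genes, along with 3 of 52 signals and 3 of 25 progenitor genes. From E14.5 to E15.5 the ratio of members to other spots rose for the osteoblast factor Dlx6, at a log2 value of 0.61 (SE 0.16). It also rose for Fam20c, the kinase of secreted matrix phosphoproteins, at 0.63 (SE 0.19). Neither passed with any of these 4 alternatives. The 3 progenitor genes were Lhx8 at 0.71, Lhx6 at 1.06 and Zic1, which neural tissue also carries, at 2.004. The ratio fell for Postn at -0.59, the hyaluronan receptor Cd44 at -0.66, Wnt10b at -1.01, the growth factor Igf2 at -0.64 and its binding protein Igfbp3 at -0.67. For Dlx6 the other spots held 67.7, 93.8, 60.1 and 48.8 CPM and the members 97.4, 138, 145 and 97.9. For Fam20c the other spots held 119, 136, 97.8 and 68.2 CPM and the members 60.2, 82.6, 69.9 and 71.3. For Cd44 the other spots held 70.4, 88.0, 129 and 146 CPM and the members 183, 144, 172 and 150. Runx2 was at -0.60 with an edgeR adjusted p of 0.111 and did not pass.

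Genes of other tissues were called as well. Of 14 neuron genes 11 were called higher, among them Stmn2 at 1.06, Tubb3 at 1.21, Gad2 at 2.12 and Neurod6 at 1.45. Stmn2 had 160 and 119 CPM in E14.5 members and 189 and 124 in E15.5 members, while the other spots held 1439 and 1245 and then 940 and 601. Of 17 muscle genes 9 were called lower and of 12 epithelium genes 7, including Myh3 at -0.76, for which the other spots held 388 and 1382 CPM at E14.5 and 1277 and 1669 at E15.5. The genes called higher with the largest differences were Nkx2-1, Amer3, Cacng2, Gsx2, Galnt9, Sox1, Kctd4, A230072I06Rik, Fut9 and Elfn2, which had few UMIs in members, and among those called lower with the largest differences were Dkk4, Foxe1, Calm4, Krt4, Evpl, Eppk1, Krtdap, Kremen2 and Dmkn. The summed level of the neuron, muscle and epithelium lists in the other spots moved with these calls, as given above, and its part in them was not tested. When the E14.5 replicate 2-4 area was left out, 125 of the 474 genes were called again, and 142 without the E15.5 replicate 2-4 area.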

How the data were processed

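Head sections were measured by the 10x Genomics Visium workflow for fixed tissue. The authors deposited raw UMI counts per spot and gene for 4 capture areas, and the submitters' processing notes name Space Ranger, Cell Ranger and mm10. Per the file headers the Space Ranger version was 1.3.1 on replicate 1 areas and 2.0.0 on the others. The tables held 19465 genes, of which 22 shared a symbol with another, and 19 barcodes off the tissue were left out. The members and gene lists were chosen with earlier results of these data known.

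UMIs were summed over members and over other spots of each area. Genes were counted as higher or lower in all areas on CPM without an added UMI. Stages were compared with edgeR 4.0.16 (R 4.3.3; TMM, filterByExpr, quasi-likelihood test, Benjamini-Hochberg adjustment, threshold 0.1) and, as an alternative, DESeq2 1.42.0. The third test fitted area, membership and their interaction with stage over 8 sums. The steps were tested on simulated data. p-values measure the spread between capture areas, and no source says that areas of a stage were separate cultures or litters. An exact permutation test of 2 against 2 areas cannot go below p = 0.333.

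Named genes were the 25 with the largest lowest-of-4-areas log2 ratio (0.5 UMI added to each sum) among genes with at least 200 UMIs over members, the 5 with the smallest highest ratio among genes with at least 1000 UMIs over the other spots of every area, and up to 10 genes in each direction of a stage test by fold change among those passing without overlap. Where fewer than 10 passed, up to 5 with the smallest p are named as not passing. Genes of the 23 lists may be named as well, and some genes that the rule names are not reported here. Gene coordinates came from GENCODE M21 (GRCm38) and promoter sequences from RefSeq. Descriptions were repeated with 150 and 600 members, 75 spots of each area, a floor of 5000 UMIs, spots thinned to 2000 UMIs, each score gene left out, sections as samples, and each area left out. Python 3.11.15 was used otherwise.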

Additional observations from a re-analysis of the deposited data

Results flagged for a closer look

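Among 84 groups of 4 sections tested for a section far from the others, 4 held one, and chance gives about 1 in 20. In E14.5 members, Panx3 had 664.5 CPM in 1 section against 405 to 432 in the others, Slc36a2 had 117 against 87.4 to 88.6 and Col1a1 had 73009 against 48754 to 52204. In E15.5 members, Bmp8a had 86.3 CPM in 1 section against 54.5 to 59.3. Sections of an area share a library.

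The difference between stages differed between members and the other spots, by the edgeR interaction term, for 41 of the genes named here. On the log2 scale it was higher in members for Nkx2-1 (4.78), Amer3 (4.38), Cacng2 (3.80), Gsx2 (3.59), Galnt9 (3.52), Sox1 (3.10), Kctd4 (3.08), A230072I06Rik (2.87), Fut9 (2.80) and Elfn2 (2.77). The same direction was found for Gad2 (2.12), Zic1 (2.004), Igfbpl1 (1.83), Crybb1 (1.77), Neurod6 (1.45), Dlx2 (1.29), Tubb3 (1.21), Stmn2 (1.06), Lhx6 (1.06), Lhx8 (0.71), Fam20c (0.63) and Dlx6 (0.61). It was lower in members for Dkk4 (-2.49), Foxe1 (-2.41), Calm4 (-1.50), Krt4 (-1.28), Evpl (-1.23), Eppk1 (-1.21), Krtdap (-1.15), Kremen2 (-1.10) and Dmkn (-1.10), and for Wnt10b (-1.01), Thbs4 (-0.85), Myh3 (-0.76), Krt14 (-0.70), Dpt (-0.67), Igfbp3 (-0.67), Cd44 (-0.66), Igf2 (-0.64), Lum (-0.62) and Postn (-0.59). Several rest on few UMIs, such as Nkx2-1 with 63 UMIs over all members and 30 for Dkk4, and the summed levels of neuron, muscle and epithelium genes in the other spots varied between the areas as well, whose part was not tested.

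Outside the spots used, 456 tissue spots had under 2000 UMIs, and 2 of them, 1 in each E14.5 area, scored at or above the last member, on 22 UMIs of the score genes.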

How the results depend on the processing

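The stage test in members called 0 genes, and it called 1 with DESeq2, 13 without a filter on low counts, 13 with a replicate block, 1 with 150 members and 2 with sections as samples, which share libraries. With an area left out, 5 to 47 genes were called, 47 without the E14.5 replicate 2-4 area, with the lone area assumed to vary like the others. In the other spots the count of 0 became 54 with DESeq2, 10 without the filter and 609 with the replicate block, and 0 to 89 with an area left out. The labels do not say what a shared replicate number means. With 2 pairs the correlation of deviations was 0.0693 in members and 0.304 in the other spots, which does not establish a pairing. Both replicate 1 areas were processed with Space Ranger 1.3.1 and both replicate 2-4 areas with 2.0.0, so the block also holds this difference. Its part in the calls was not tested. The 474 calls of the interaction test became 107 with DESeq2, 12 when the test required a log2 change above 1, 0 without the area as a block, 243 with 150 members, 170 with 75 spots of each area and 19 with sections as samples, and 163 to 674 with an area left out. Without TMM the calls were split as 361 higher and 132 lower. Without the E14.5 replicate 2-4 area, Dkk4, Evpl and Foxe1 turned to 7.12, 7.22 and 6.15 on the log2 scale, with SE of 11.96, 11.47 and 15.02, and did not pass. Over the areas left out, they otherwise reached down to -3.13, -1.53 and -2.50. The ratio of the member share between stages ran from 0.958 to 2.28 with an area left out, and turned below 1 without the E15.5 replicate 2-4 area. Ibsp in adjacent spots was 35.7% of the member level with 150 members, 23.9% with 600 and 39.4% on thinned spots. Ctsk there was 51.4% with 600 members. The rho of Hand2 and Phex turned to 0.023 with 75 spots of each area. The causes were not tested. Of the 25 genes furthest above the other spots, 17 to 25 were chosen again under the other member choices. Mmp13 passed the stage test without the filter (edgeR adjusted p 0.000963), with the replicate block (0.0014) and without the E14.5 replicate 2-4 or the E15.5 replicate 1 area. Arhgef25 passed under 8 alternatives, among them DESeq2 and each fit without an area except that without the E15.5 replicate 2-4 area. The shallow E14.5 replicate 1 area limits low genes.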
